A study of Homo sapiens with 9 samples.

Results

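The 10 genes described here encode proteins that mark fibroblasts. LUM, DCN and BGN encode matrix proteoglycans, FBN1 and FN1 fibre proteins, SPARC and POSTN matricellular proteins, and PDGFRA, THY1 and FAP surface proteins. They were picked by symbol from a table of 24542 genes and loci, and all 10 had a row. The RNA came from A2780, an established ovarian cancer cell line whose genotype is labelled WT. Cells were treated for 96 h with Pt-ttpy at 5.5 µM, with cisplatin (written Cispt in the labels) at 0.6 µM, or with 0.5% DMSO, the untreated control. There were 3 libraries per group, numbered as biological replicates. Both doses are described as the IC80 of the drug. The labels do not say whether the drug-treated cells also received DMSO. The series title describes Pt-ttpy as a platinum complex that binds G-quadruplexes, and cisplatin is a drug whose platinum atom forms crosslinks in DNA. All comparisons are within this 1 cell line. The labels do not state that replicates are from separate cultures, so the spread behind the p-values may be technical.

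Fibroblasts build much of the extracellular matrix, the protein network around cells in connective tissue. Small leucine-rich proteoglycans such as lumican and decorin bind collagen fibrils, fibronectin and fibrillin form fibres, and matricellular proteins modulate how cells attach. In ovarian tumours such genes are widely used as markers of the stroma, the connective tissue between the cancer cells.

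Library totals ranged from 31.3 to 40.8 M counts. In DMSO 2 and cisplatin 2 GC-rich transcripts had relatively more counts (Spearman rho across genes 0.51 in DMSO 2 and 0.41 in cisplatin 2), whereas rho lay between -0.34 and -0.16 in the other 7 libraries. The changes of LUM, DCN and PDGFRA are given with and without these 2 libraries, and those of other members where leaving them out altered a call. Some further values without them are also given. The label of ovarian carcinoma was not matched by epithelial markers, several of which were at or near 0. Among 13 epithelial and ovarian carcinoma markers, KRT7 had 0 counts over all 9 libraries, KRT18 had 2 and CDH1 had 23. Their summed level was 3.48 to 4.68 CPM (counts scaled to the library size with TMM factors) with Pt-ttpy, 6.55 to 13.3 CPM with cisplatin and 2.39 to 3.29 CPM with DMSO. By contrast VIM, the mesenchymal filament vimentin, averaged 6080 CPM with Pt-ttpy, 7050 CPM with cisplatin and 5340 CPM with DMSO. The 9 leukocyte markers summed to 3.75 to 5.07 CPM with Pt-ttpy, 5.10 to 5.70 CPM with cisplatin and 3.47 to 5.38 CPM with DMSO, and PTPRC had 4 counts in all. The 8 endothelial markers, mostly EGFL7, summed to 16.9 to 17.9 CPM with Pt-ttpy, 17.5 to 31.8 CPM with cisplatin and 19.2 to 25.1 CPM with DMSO, and PECAM1 had 17 counts in all.

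A2780 cells expressed 7 of the 10 fibroblast-type genes well above the detection limit, FN1 at a trace level, and neither BGN nor FAP at any detectable level. LUM and DCN led the group. Levels between genes are given as RPKM, the CPM divided by the length in kilobases of the principal transcript in GENCODE 29. LUM, encoding lumican, averaged 94.0 ± 5.21 RPKM with Pt-ttpy, 75.8 ± 8.37 with cisplatin and 40.3 ± 14.2 with DMSO (SD, n = 3 in each group here and below). DCN, encoding decorin, averaged 69.3 ± 2.77 RPKM with Pt-ttpy, 60.7 ± 8.55 with cisplatin and 45.3 ± 2.63 with DMSO. Over all 9 libraries, LUM stood above 92.7% and DCN above 90.7% of the 13383 tested genes with a known length. With DMSO the LUM and DCN levels overlapped within their spread, and in the treated groups the LUM mean was the higher one. The transcript length matters for that order: over the union of all annotated exons DCN averaged 38.6 RPKM with Pt-ttpy, 33.8 with cisplatin and 25.2 with DMSO, while the LUM values were unchanged.

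The next pair was SPARC and THY1. SPARC, which encodes a collagen-binding matricellular protein, averaged 28.5 ± 1.26 RPKM with Pt-ttpy, 29.4 ± 1.93 with cisplatin and 27.7 ± 2.44 with DMSO. THY1, which encodes a lipid-anchored surface glycoprotein, averaged 25.6 ± 0.187 RPKM with Pt-ttpy, 27.0 ± 1.62 with cisplatin and 30.7 ± 5.11 with DMSO. With DMSO these neighbours in the order overlapped, with cisplatin their closest libraries were nearly level, and with Pt-ttpy every SPARC value was the higher. PDGFRA, a receptor for platelet-derived growth factors, averaged 17.5 ± 0.843 RPKM with Pt-ttpy, 14.9 ± 2.03 with cisplatin and 10.6 ± 1.02 with DMSO. POSTN, encoding periostin, averaged 11.1 ± 0.517 RPKM with Pt-ttpy, 9.90 ± 4.65 with cisplatin and 10.3 ± 3.25 with DMSO, so PDGFRA and POSTN overlapped with DMSO and with cisplatin. FBN1, encoding the microfibril protein fibrillin-1, averaged 5.92 ± 0.231 RPKM with Pt-ttpy, 5.67 ± 1.30 with cisplatin and 4.94 ± 0.310 with DMSO. FN1, encoding fibronectin, was far below the others at 0.138 ± 0.0419 RPKM with Pt-ttpy, 0.210 ± 0.0699 with cisplatin and 0.168 ± 0.0460 with DMSO, above only 5% of the tested genes.

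**Figure D1:**
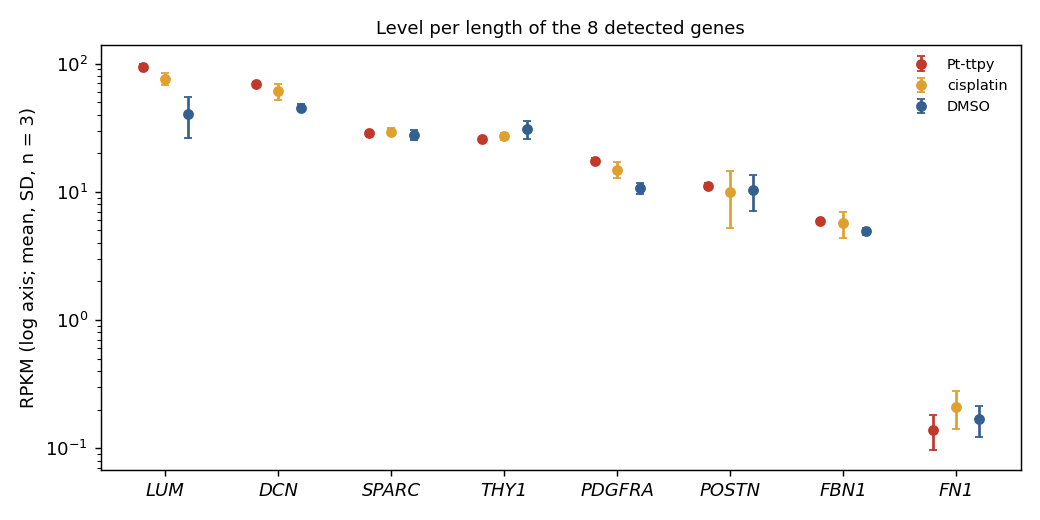
Level per length of the 8 detected genes in RPKM on a log axis, ordered by the mean over all 9 libraries, with points for the mean and bars for the SD of 3 libraries of Pt-ttpy (red), cisplatin (yellow) and DMSO (blue). LUM and DCN are the highest, and FN1 lies near 0.1 to 0.2 RPKM, far below FBN1.

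BGN (ENSG00000182492; chromosome X, 153494939 to 153509554, GRCh38, plus strand) encodes the proteoglycan biglycan, and FAP (ENSG00000078098; chromosome 2, 162170684 to 162245151, minus strand) a surface protease of activated fibroblasts. Both had 0 counts in every library. Together the libraries held 319198921 counts, and 0 counts in that total allow a level of up to 0.0094 CPM (3 counts, counting error only). They were among 3505 of the 19974 Ensembl genes in the table (17.5%) with no count in any library. FN1 had 35, 27 and 48 counts with Pt-ttpy, 43, 97 and 44 with cisplatin and 41, 38 and 70 with DMSO. A gene for a central matrix protein was at a trace level beside an abundant LUM. Among other fibroblast markers, PDPN, TCF21 and DPT also had 0 counts in all 9 libraries, whereas COL3A1, a fibrillar collagen, averaged 823 CPM with Pt-ttpy, 920 CPM with cisplatin and 482 CPM with DMSO. The collagen genes COL1A1 and COL1A2 were far lower. COL1A1 averaged 9.94 CPM with Pt-ttpy, 10.2 CPM with cisplatin and 11.1 CPM with DMSO, and COL1A2 averaged 2.69, 3.54 and 2 CPM in the same groups.

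The start regions of 1 silent member (BGN), 1 at a trace level (FN1) and 2 expressed members (PDGFRA, POSTN) are shown. RefSeq windows on GRCh38.p14 (250 bases before to 50 after a gene start) matched 6 of the 10 members, with 2 windows for PDGFRA, and none was used for LUM, DCN, THY1 and FAP. Each line gives, 5′ to 3′, the bases before the RefSeq start that are no exon of the gene in GENCODE 29. Capitals mark, on either strand, the letters of a GC box (GGGCGG), those of a TATA box (TATAAA) and those of an AP-1 element (TGANTCA).
BGN, chrX:153494730-153494938, plus strand: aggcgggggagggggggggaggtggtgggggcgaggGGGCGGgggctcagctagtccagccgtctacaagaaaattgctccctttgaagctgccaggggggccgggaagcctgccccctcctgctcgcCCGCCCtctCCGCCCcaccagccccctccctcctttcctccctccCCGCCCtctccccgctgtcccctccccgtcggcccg
FN1, chr2:215436173-215436318, minus strand: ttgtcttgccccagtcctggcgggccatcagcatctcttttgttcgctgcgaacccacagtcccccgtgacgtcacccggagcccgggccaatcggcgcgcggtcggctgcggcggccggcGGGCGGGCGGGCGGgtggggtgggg
PDGFRA, chr4:54233710-54233959, plus strand: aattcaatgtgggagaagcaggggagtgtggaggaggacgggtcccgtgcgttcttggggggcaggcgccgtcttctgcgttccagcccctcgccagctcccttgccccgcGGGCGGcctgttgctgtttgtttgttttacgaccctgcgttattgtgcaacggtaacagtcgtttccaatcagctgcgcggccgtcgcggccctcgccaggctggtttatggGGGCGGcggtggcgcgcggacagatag
POSTN, chr13:37598845-37599018, minus strand: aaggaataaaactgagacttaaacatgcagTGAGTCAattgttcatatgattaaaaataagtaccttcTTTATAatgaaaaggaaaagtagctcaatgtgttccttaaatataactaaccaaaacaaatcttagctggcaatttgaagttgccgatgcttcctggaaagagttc
In the full 300-base windows, GGGCGG was found 5 times for BGN and 6 times for FN1 (where matches overlapped each other), and 2 times in the PDGFRA window shown. It was not found for FBN1, SPARC, POSTN or the other PDGFRA window, and 45.0% of all 35116 RefSeq windows held it. TATAAA was found in the POSTN window only, at 11.5% of all windows, and TGANTCA in the POSTN window and the other PDGFRA window, at 7.7% of all. The silent BGN window had 71.7% GC and 19 CpG dinucleotides, and that of FN1 had 76.7% and 38. The POSTN window had 39.0% GC and 3 CpG, and the PDGFRA window shown had 66.7% and 32, against a median of 14 CpG over all windows. These matches describe letters only.

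After Pt-ttpy, LUM, DCN and PDGFRA rose and no member was called lower. Changes were called at an adjusted p under 0.05 by edgeR's quasi-likelihood test over 15558 genes. Of the 8 members tested, 3 were called higher, 0 lower and 5 were not called, while 12.0% of all genes were called, 5.59% higher and 6.45% lower. The median log2 change was 0.19 over the 8 members and 0.031 over all genes. BGN and FAP did not pass the filter on low counts. In such bulk RNA, a change in the share of cells that express a gene and a change in RNA per cell cannot be told apart.

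LUM (ENSG00000139329; chromosome 12, 91102629 to 91111831, GRCh38, minus strand) had 265, 296 and 288 CPM in Pt-ttpy 1, 2 and 3, and 150 (DMSO 1), 72.1 (DMSO 2) and 141 CPM (DMSO 3) in the controls. All Pt-ttpy libraries lay above all DMSO libraries, and DMSO 2 was the lowest of the 9. The log2 change was 1.22 (SE 0.22, 95% interval 0.75 to 1.70, adjusted p = 0.00964), a 2.33-fold rise. Without DMSO 2 and cisplatin 2 it was 0.96 (adjusted p = 2.04e-09), and the call held whichever single library was left out (highest adjusted p = 0.0495).

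DCN (ENSG00000011465; chromosome 12, 91140484 to 91183123, minus strand) is the next protein-coding gene to LUM, 28652 bases away. Its level was 477, 516 and 495 CPM with Pt-ttpy, and 334, 303 and 337 CPM with DMSO, with no overlap between the groups. It rose by 0.61 on the log2 scale (SE 0.11, 95% interval 0.37 to 0.85, adjusted p = 0.00981). The change was 0.57 without DMSO 2 and cisplatin 2 (adjusted p = 9.47e-08), and the call was lost without Pt-ttpy 2 (log2 0.59, adjusted p = 0.0593).

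Relative to DCN, LUM was higher with both drugs than with DMSO. LUM counts were 55.7, 57.2 and 58.1% of the DCN counts of the same library with Pt-ttpy, 52.2, 54.7 and 51.1% with cisplatin, and 45.1, 23.8 and 41.8% with DMSO. This ratio, chosen after its values were seen, does not depend on scaling between libraries, and neither drug group overlapped the DMSO group in it. KERA, which follows LUM on its other side, had 0, 0 and 0 counts with Pt-ttpy, 0, 0 and 6 with cisplatin, and 0 in each DMSO library. LUM and DCN together made up 64.6 to 65.6% of all counts of the 10 genes with Pt-ttpy, 58.3 to 63.9% with cisplatin and 49.3 to 56.6% with DMSO.

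PDGFRA (ENSG00000134853; chromosome 4, 54229097 to 54298247, plus strand) had 109, 119 and 118 CPM with Pt-ttpy, and 76.0, 62.6 and 70.6 CPM with DMSO, again without overlap. The rise was 0.72 on the log2 scale (SE 0.12, 95% interval 0.46 to 0.99, adjusted p = 0.00825). It was 0.65 without DMSO 2 and cisplatin 2 (adjusted p = 4.46e-07) and kept its call whichever library was left out (highest adjusted p = 0.0495). A protein-coding gene on the same strand, ENSG00000282278, covers 15.8% of the annotated PDGFRA exon bases and had 0 counts in every library. How reads in the shared bases were assigned is not given, so these counts do not show that the overlapping gene is silent. Of 5 genes for PDGF ligands and the sister receptor, 4 were tested, with 1 higher, 0 lower and 3 not called in each comparison with DMSO (medians 0.41 after Pt-ttpy and 0.86 after cisplatin). Of all genes, 5.59% were higher after Pt-ttpy and 10.7% after cisplatin. With 1 library left out, 0 to 2 of the list were higher after Pt-ttpy and 1 to 2 after cisplatin. With upper-quartile factors or library totals, 2 were higher after Pt-ttpy and 3 after cisplatin. Of 15558 genes, 1050 and 1005 were higher after Pt-ttpy under these 2 scalings, and 1940 and 1995 after cisplatin. PDGFRB, the sister receptor, averaged 20.7 CPM with Pt-ttpy and 9.49 CPM with DMSO (log2 1.13, SE 0.29, adjusted p = 0.03), a call lost when any single DMSO or Pt-ttpy library was left out (adjusted p up to 0.0948) and present without DMSO 2 and cisplatin 2 (log2 1.27, adjusted p = 2.51e-06). With cisplatin PDGFRB averaged 23.1 CPM (log2 1.29, adjusted p = 0.0119), a call held whichever library was left out. Its counts were 480, 1551 and 580 in cisplatin 1, 2 and 3. Without DMSO 2 and cisplatin 2 its log2 change with cisplatin was 0.93 (adjusted p = 0.000141). After Pt-ttpy the ligand genes PDGFA (log2 0.17, adjusted p = 0.635) and PDGFC (0.35, adjusted p = 0.0597) were not called. Neither were they after cisplatin (PDGFA 0.63, adjusted p = 0.0597, and PDGFC 0.29, adjusted p = 0.0785).

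**Figure D2:**
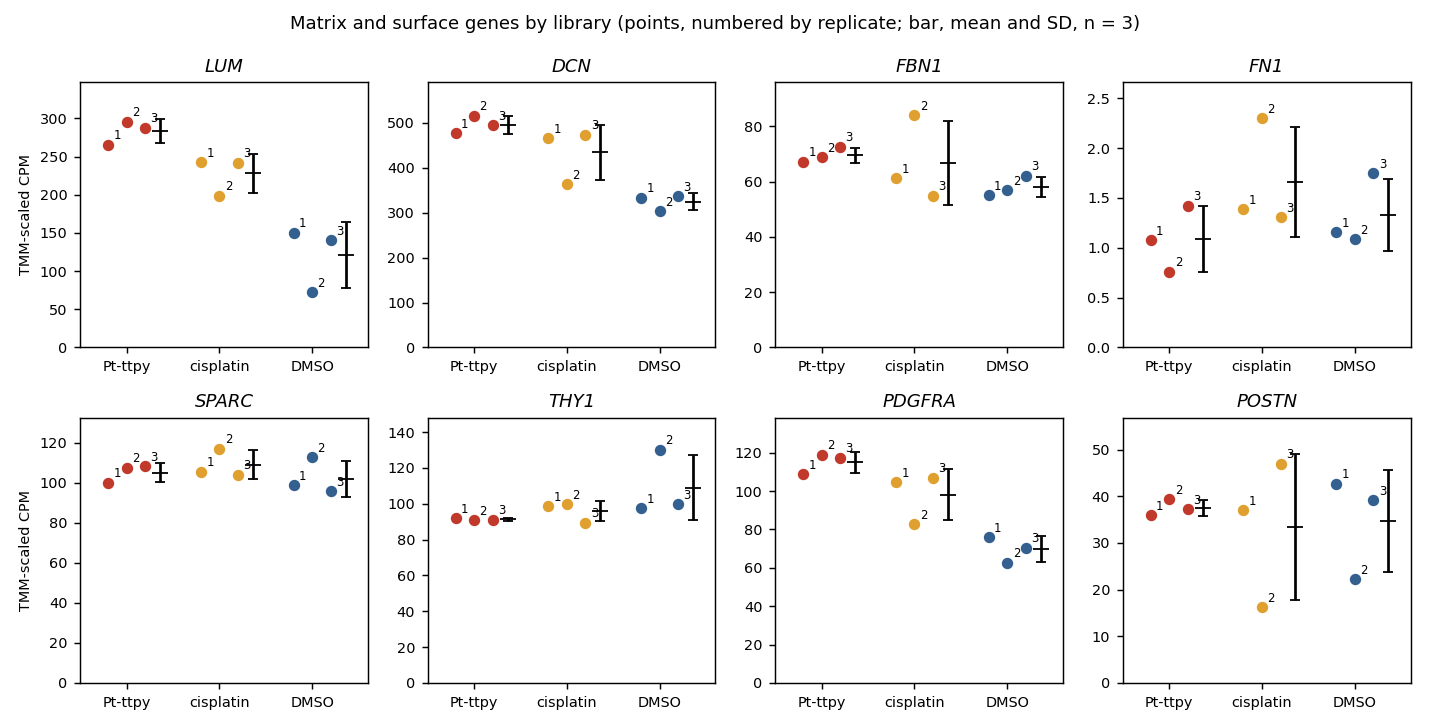
TMM-scaled CPM of the 8 detected genes in each library, with points numbered by replicate and a bar for the mean and SD of the 3 libraries of a group. Points of LUM, DCN and PDGFRA with Pt-ttpy (left) lie above all points with DMSO (right), and POSTN is lowest in cisplatin 2 and DMSO 2.

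The other 5 tested members were not called after Pt-ttpy. FBN1 (ENSG00000166147; chromosome 15, 48408306 to 48645849, minus strand) had 67.2, 68.8 and 72.5 CPM with Pt-ttpy, and 55.1, 57.0 and 62.2 CPM with DMSO, which did not overlap. Its log2 change was 0.26 (95% interval -0.05 to 0.57, adjusted p = 0.253), and 0.25 without DMSO 2 and cisplatin 2, where it was called (adjusted p = 0.0117). THY1 (ENSG00000154096; chromosome 11, 119417378 to 119424985, minus strand) had 91.9, 90.7 and 91.0 CPM with Pt-ttpy, and 97.6, 130 and 99.7 CPM with DMSO. The groups did not overlap, and the log2 difference was -0.26 (95% interval -0.52 to 0.00, adjusted p = 0.171), or -0.11 without DMSO 2 and cisplatin 2 (adjusted p = 0.168). Groups without overlap were thus found for 4 members higher and 1 lower, against 20.3% and 20.6% of all genes.

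SPARC (ENSG00000113140; chromosome 5, 151661096 to 151687165, minus strand) had 100, 108 and 108 CPM with Pt-ttpy, and 98.7, 113 and 95.7 CPM with DMSO, with overlap (log2 0.04, 95% interval -0.18 to 0.26, adjusted p = 0.823). This was the narrowest interval among the 8 genes. Without DMSO 2 and cisplatin 2 the log2 change of SPARC was 0.12 (adjusted p = 0.119). An antisense gene, CLMAT3, overlaps 7.89% of the SPARC exon bases. POSTN (ENSG00000133110; chromosome 13, 37562583 to 37598844, minus strand) had 35.9, 39.4 and 37.2 CPM with Pt-ttpy, and 42.7, 22.2 and 39.1 CPM with DMSO, and the groups overlapped. Its log2 change was 0.11 with a wide interval (-0.61 to 0.84, adjusted p = 0.855), and -0.12 without DMSO 2 and cisplatin 2 (adjusted p = 0.347). FN1 (ENSG00000115414, chromosome 2, 215360440 to 215436172, minus strand) differed by -0.29 (95% interval -1.14 to 0.55, adjusted p = 0.656) at its trace level. A rise of the size seen for DCN lies just outside this interval, and a fall of that size inside it. Without DMSO 2 and cisplatin 2 the FN1 difference was -0.41 (adjusted p = 0.499).

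The spread within groups followed the 2 libraries with a GC trend for some members. POSTN was lowest of all in cisplatin 2 (16.2 CPM) and DMSO 2 (22.2 CPM), against 35.9 to 47.0 CPM in the other 7 libraries. LUM was lowest in DMSO 2, and LUM, DCN and PDGFRA each had their lowest cisplatin value in cisplatin 2. The transcripts of LUM (36.3% GC), DCN (38.1%), POSTN (39.0%), FN1 (42.2%) and PDGFRA (42.9%) had the lowest GC among the detected members, and FN1 had its highest count in cisplatin 2. THY1, with the highest (57.4%), had its highest value in DMSO 2. The part of the GC trend in these values was not tested beyond leaving the 2 libraries out.

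LUM, DCN and PDGFRA also rose after cisplatin, and again no member was called lower. Of the 8 members, 3 were called higher, 0 lower and 5 not called, against 20.5% of all genes called, 10.7% higher and 9.78% lower, and the medians were 0.26 for the members and 0.013 for all genes. Both comparisons use the same DMSO libraries, so a shared direction is not independent. LUM had 243, 199 and 242 CPM with cisplatin, all above the 3 DMSO values (log2 0.91, SE 0.22, adjusted p = 0.0142). DCN had 465, 364 and 474 CPM (log2 0.42, SE 0.11, adjusted p = 0.0207). PDGFRA had 105, 82.9 and 107 CPM (log2 0.49, SE 0.12, adjusted p = 0.0165). In all 3 genes cisplatin 2 was the lowest cisplatin library and still above every DMSO library, a separation seen in that direction for 18.6% of all genes and in the other, which no member showed, for 19.4%.

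The LUM call after cisplatin held whichever library was left out (highest adjusted p = 0.0419). Calls of DCN and PDGFRA were lost without cisplatin 1 (adjusted p = 0.0685 for DCN and 0.0527 for PDGFRA), without cisplatin 3 (0.0701 and 0.0562) and with the 6 libraries of the contrast alone (0.0662 and 0.057), so that 1 of 8 members was then called. Without DMSO 2 and cisplatin 2 the log2 changes were 0.74 for LUM, 0.49 for DCN and 0.54 for PDGFRA, all called (highest adjusted p = 9.59e-06). FBN1 had 61.2, 84.0 and 54.9 CPM with cisplatin (log2 0.20, adjusted p = 0.349), and its difference was -0.01 without these 2 libraries. SPARC had 106, 117 and 104 CPM (log2 0.09, adjusted p = 0.57) and THY1 had 98.8, 99.8 and 89.4 CPM (-0.18, adjusted p = 0.296). POSTN had 37.1, 16.2 and 47.0 CPM (log2 -0.06, adjusted p = 0.922) and FN1 differed by 0.32 (adjusted p = 0.585), both with overlapping groups. Over all alternative fits the log2 change lay between -0.39 and 0.28 for POSTN and between -0.11 and 0.57 for FN1, so neither kept its sign.

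Set against cisplatin, Pt-ttpy gave somewhat higher values of the same 3 genes, but no member was called. The molar doses differed, 5.5 µM against 0.6 µM, and both are described as the IC80. Of the 8 members 0 were called in either direction, 0 had an unadjusted p under 0.05, and DESeq2 called 0. Over all genes 0.514% were called, 0.0578% higher and 0.456% lower with Pt-ttpy. LUM was 0.31 higher in log2 (95% interval -0.15 to 0.78, adjusted p = 0.772), DCN 0.19 (-0.05 to 0.43, adjusted p = 0.715) and PDGFRA 0.23 (-0.03 to 0.49, adjusted p = 0.679). In each of these 3 genes every Pt-ttpy value lay above every cisplatin value, as for 10.5% of all genes, while 10.1% were separated the other way. These intervals include both no difference and a Pt-ttpy level well above that of cisplatin, so they do not show that the drugs act alike. Without DMSO 2 and cisplatin 2, LUM (log2 0.22, adjusted p = 0.0185) and FBN1 (0.26, adjusted p = 0.0434) were called higher with Pt-ttpy, and DCN (0.08) and PDGFRA (0.12) were not. In that fit 813 of 15646 genes were called between the drugs, 371 higher and 442 lower with Pt-ttpy, against 80 in the main analysis. For SPARC (-0.05), THY1 (-0.07), POSTN (0.17) and FN1 (-0.62) the intervals spanned 0. Over all alternative fits POSTN lay between -0.17 and 0.50 and FN1 between -0.86 and -0.31.

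**Figure D3:**
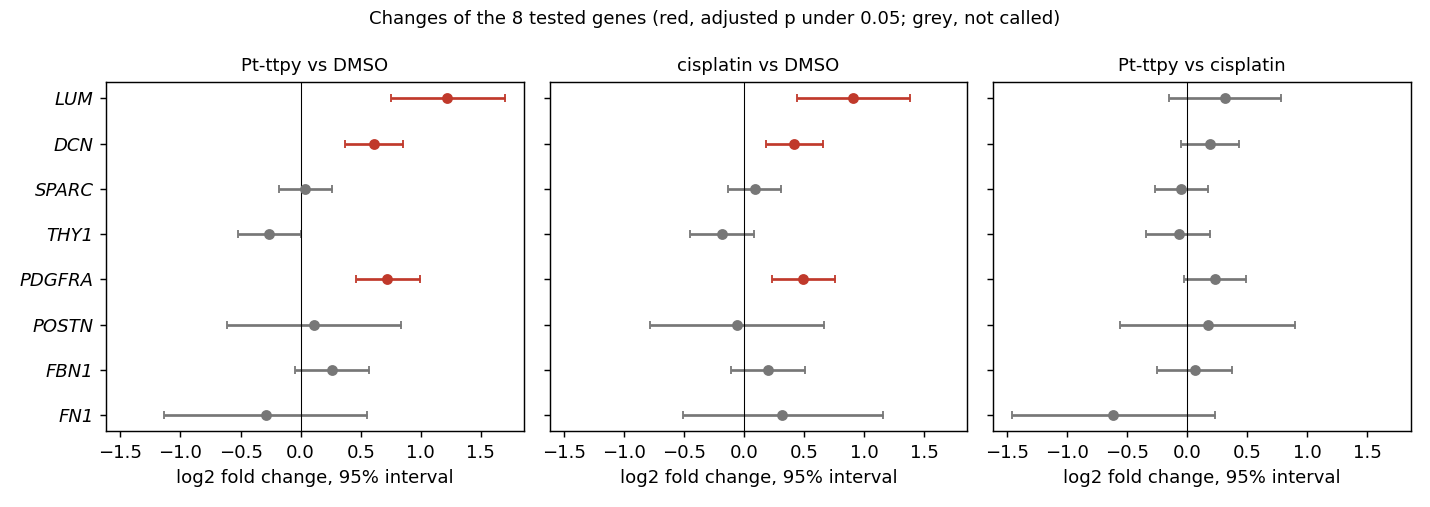
Log2 fold changes of the 8 tested genes with 95% intervals for each drug against DMSO (left, Pt-ttpy; middle, cisplatin) and for Pt-ttpy against cisplatin (right), where positive values are higher in the group named first. LUM, DCN and PDGFRA (red) were called in both comparisons with DMSO, and no gene was called between the drugs.

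Across the 9 libraries, DCN and PDGFRA had profiles closer to each other than to any other of 15557 tested genes. Likeness was measured as the root mean square difference of log2 CPM after centring each gene, and it was 0.061 for this pair, compared with a spread of 0.279 for DCN and 0.326 for PDGFRA themselves. Outside the group, among 13343 tested genes with a symbol, the nearest to DCN were PLCH1, encoding a phospholipase C (0.064), and PGRMC1, encoding a membrane-bound haem protein (0.074). Those nearest to PDGFRA were SYNE1, encoding a nuclear envelope protein (0.094), and ZNF608 (0.097). LUM, with a spread of 0.623, was nearest to CALCRL, encoding a receptor for calcitonin-related peptides (0.080). PDGFRA ranked 257th and DCN 506th in likeness to LUM. The libraries share groups and a GC trend, so these are descriptions of 9 profiles.

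The lists of other matrix genes are read beside all genes, of which 5.59% were higher and 6.45% lower after Pt-ttpy (median 0.031) and 10.7% higher and 9.78% lower after cisplatin (median 0.013). These shares are of the main analysis. With 1 library left out, 185 to 3004 of all genes were called after Pt-ttpy and 2012 to 3100 after cisplatin, and the list ranges are read beside these. Of 20 elastic fibre and microfibril genes 15 were tested. After Pt-ttpy 3 were higher (all genes, 5.59%), 0 lower and 12 not called (median 0.29), and after cisplatin 7 were higher (all genes, 10.7%), 0 lower and 8 not called (median 0.60). With 1 library left out, 0 to 5 were higher after Pt-ttpy and 5 to 8 after cisplatin. Without DMSO 2 and cisplatin 2, 7 were higher after Pt-ttpy, and 9 higher and 1 lower after cisplatin. In that fit 2469 of 15646 genes were higher after Pt-ttpy, and 2169 higher and 2559 lower after cisplatin. LTBP4, which holds latent TGF-beta in the matrix, averaged 376 CPM with Pt-ttpy and 228 CPM with DMSO (log2 0.72, adjusted p = 0.0372), a call lost without DMSO 1, DMSO 3 or any Pt-ttpy library (highest adjusted p = 0.122). With cisplatin LTBP4 averaged 435 CPM (log2 0.93, adjusted p = 0.00957). LTBP2 rose by 1.90 with cisplatin (adjusted p = 0.00372) and EFEMP2, a fibulin of elastic fibres, by 1.31 (adjusted p = 0.00623). After Pt-ttpy LTBP2 (log2 1.10, adjusted p = 0.0463) and EFEMP2 (0.99, adjusted p = 0.0287) were called as well, each in 3 of 9 fits with 1 library left out. FBN2, the paralog of FBN1, averaged 64.1 CPM with Pt-ttpy, 92.1 CPM with cisplatin and 59.4 CPM with DMSO. It rose with cisplatin (log2 0.63, adjusted p = 0.00323) and was not called with Pt-ttpy (0.11, adjusted p = 0.522). Between the drugs FBN2 was not called (log2 -0.52 for Pt-ttpy relative to cisplatin, adjusted p = 0.0606). The cisplatin calls of FBN2, EFEMP2, LTBP2 and LTBP4 held whichever library was left out, and LTBP2 was at 1.28 without DMSO 2 and cisplatin 2.

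Of 17 genes that modify and process collagen 16 were tested. After Pt-ttpy 5 were higher (all genes, 5.59%), 0 lower and 11 not called (median 0.35), and after cisplatin 3 were higher (all genes, 10.7%), 0 lower and 13 not called (median 0.24). With 1 library left out, 0 to 6 were higher after Pt-ttpy and 0 to 3 after cisplatin. Without DMSO 2 and cisplatin 2, 7 were higher and 1 lower after Pt-ttpy, and 4 higher and 2 lower after cisplatin. Of 15646 genes in that fit, 2469 were higher and 2720 lower after Pt-ttpy, and 2169 higher and 2559 lower after cisplatin. PLOD2, a lysyl hydroxylase for collagen crosslinks, averaged 155 CPM with Pt-ttpy and 77.3 CPM with DMSO (log2 1.01, adjusted p = 0.00889), and lost its call without Pt-ttpy 2 (adjusted p = 0.0509). The prolyl hydroxylase subunits P4HA1 (log2 0.63, adjusted p = 0.0207) and P4HA2 (0.49, adjusted p = 0.0143) rose as well, and both calls needed all 3 Pt-ttpy libraries (adjusted p up to 0.102 for P4HA1 and 0.0781 for P4HA2 when 1 was left out). With cisplatin PLOD2 (0.25), P4HA1 (0.01) and P4HA2 (0.07) were not called. Between the drugs 0 of the 16 were called (all genes, 0.514%). Relative to cisplatin, Pt-ttpy gave log2 differences of 0.75 for PLOD2 (adjusted p = 0.107), 0.62 for P4HA1 (0.115) and 0.42 for P4HA2 (0.112). A difference between the drugs was thus not shown for these genes. PCOLCE, an enhancer of procollagen processing, rose by 0.49 with Pt-ttpy (adjusted p = 0.0257), a call lost without DMSO 1, DMSO 3 or any Pt-ttpy library (adjusted p up to 0.103). With cisplatin it rose by 0.51 (adjusted p = 0.0143), a call lost without DMSO 3 (adjusted p = 0.0552).

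**Figure D4:**
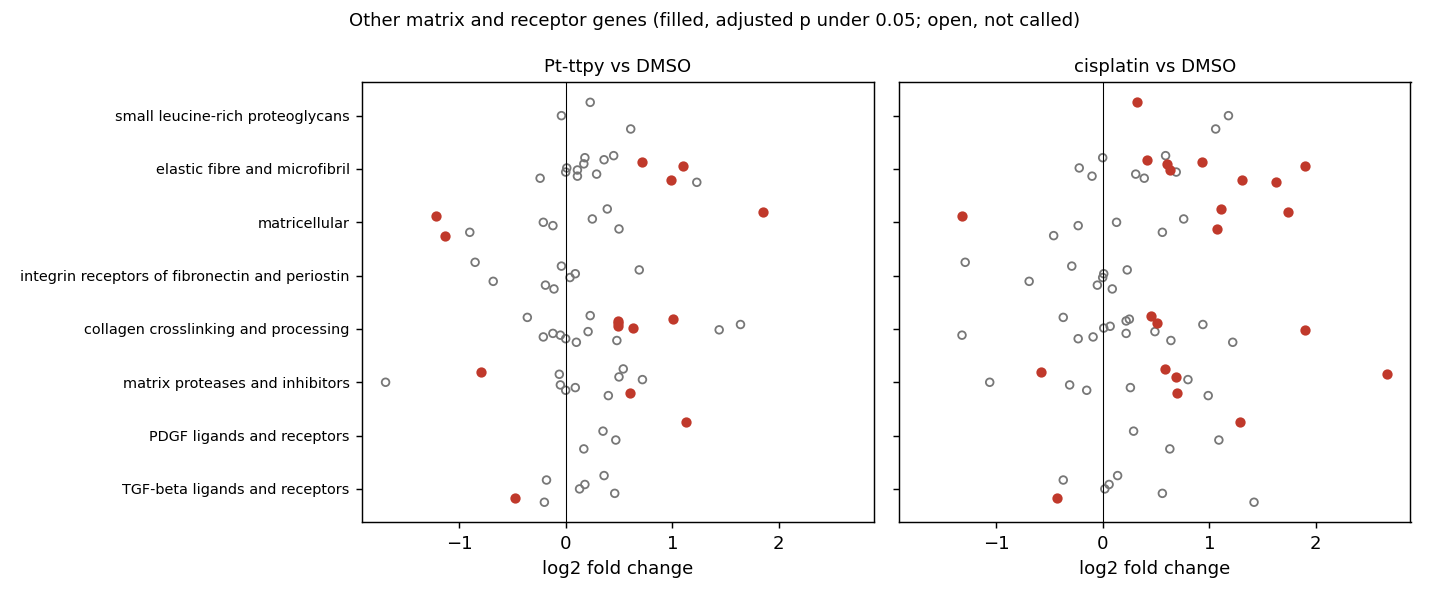
Log2 fold changes of the tested genes of 8 other matrix and receptor lists after Pt-ttpy (left) and cisplatin (right) against DMSO, with filled points for adjusted p under 0.05 and open points for genes not called, leaving out FBN3 and SPARCL1, which had 0 counts in all DMSO libraries. Most filled points lie right of 0, and the integrin list has none.

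Of 10 matricellular genes tested, 2 were higher, 2 lower and 6 not called after Pt-ttpy (median 0.07; all genes, 5.59% higher and 6.45% lower). After cisplatin 4 were higher, 1 lower and 5 not called (median 0.66; all genes, 10.7% higher and 9.78% lower). With 1 library left out, 1 to 2 were higher and 0 to 3 lower after Pt-ttpy, and 2 to 3 higher and 0 to 1 lower after cisplatin. THBS2, encoding a thrombospondin, had 159, 103 and 103 counts with Pt-ttpy, 109, 150 and 99 with cisplatin and 31, 32 and 48 with DMSO. Its rise was 1.85 with Pt-ttpy (adjusted p = 0.00599) and 1.74 with cisplatin (adjusted p = 0.00329), and both calls held whichever library was left out. THBS1, its paralog, fell by 1.22 with Pt-ttpy (adjusted p = 0.0378) and by 1.32 with cisplatin (adjusted p = 0.02). These calls were lost without DMSO 2, DMSO 3 or any Pt-ttpy library for Pt-ttpy, and without DMSO 3, cisplatin 1 or cisplatin 2 for cisplatin (highest adjusted p = 0.148 and 0.0774). With DMSO 2 and cisplatin 2 left out together the log2 changes were -1.25 with Pt-ttpy (adjusted p = 0.0135) and -1.23 with cisplatin (adjusted p = 0.0311). SPARCL1, the paralog of SPARC, had 12, 5 and 16 counts with Pt-ttpy, 6, 2 and 10 with cisplatin and 0 in each DMSO library, at least 12-fold higher with Pt-ttpy and 6.2-fold with cisplatin against a floor of 3 counts over the DMSO group. It passed the filter on low counts only through the treated groups, so its calls support nothing; without it 1 matricellular gene was higher after Pt-ttpy and 3 after cisplatin.

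No gene for a receptor of fibronectin and periostin was called in either comparison in the main analysis. Of 11 integrin genes 8 were tested, with medians of -0.08 after Pt-ttpy and -0.03 after cisplatin. Of all genes, 12.0% were called after Pt-ttpy and 20.5% after cisplatin, and 0 of 8 is not far below these shares. With 1 library left out, 0 were called after Pt-ttpy. After cisplatin 1 was lower without cisplatin 2, and also without DMSO 2 and cisplatin 2. ITGAV averaged 1010 CPM with Pt-ttpy, 978 CPM with cisplatin and 978 CPM with DMSO, and ITGB1 averaged 658, 624 and 620 CPM in the same groups. TGF-beta ligands and receptors had 0 higher, 1 lower and 6 not called in each comparison, with medians of 0.13 after Pt-ttpy, where 12.0% of all genes were called, and 0.06 after cisplatin, where 20.5% were. A count of 1 in 7 is near or below these shares. TGFB1, a growth factor that induces matrix genes in fibroblasts, averaged 164 CPM with Pt-ttpy, 170 CPM with cisplatin and 229 CPM with DMSO. It fell by 0.48 with Pt-ttpy (adjusted p = 0.0304), a call lost without any one Pt-ttpy library (highest adjusted p = 0.123). With cisplatin it fell by 0.43 (adjusted p = 0.0321), a call lost in 7 of 9 fits with 1 library left out, all but those without DMSO 1 and DMSO 2. Upper-quartile factors ended both calls and library totals the cisplatin call, and without DMSO 2 and cisplatin 2 the log2 changes were -0.31 with Pt-ttpy and -0.25 with cisplatin, both called (adjusted p = 0.000331 and 0.00542).

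Matrix proteases and their inhibitors had 1 higher, 1 lower and 9 not called of 11 tested after Pt-ttpy (median 0.09), and 4 higher, 1 lower and 6 not called after cisplatin (median 0.58). Of all genes, 12.0% were called after Pt-ttpy and 20.5% after cisplatin. With 1 library left out, 0 to 2 were higher and 0 to 1 lower after Pt-ttpy, and 2 to 4 higher and 0 to 1 lower after cisplatin. MMP11, a matrix metalloproteinase, rose by 0.60 with Pt-ttpy (adjusted p = 0.0373), a call held in 3 of 9 fits with 1 library left out, and by 0.70 with cisplatin (adjusted p = 0.0146), a call held in all 9. TIMP1, an inhibitor of metalloproteinases, fell by 0.79 with Pt-ttpy (adjusted p = 0.0233), a call held in 5 of 9 such fits, and by 0.60 without DMSO 2 and cisplatin 2 (adjusted p = 0.000138). With cisplatin the log2 change was -0.58 (adjusted p = 0.0488). That call was lost in 7 of 9 such fits, under each other scaling, both other filters and the replicate block, and without DMSO 2 and cisplatin 2 (-0.19, adjusted p = 0.105). Most other small leucine-rich proteoglycans were at or near 0: of 14 listed, 3 passed the filter on low counts, ASPN, ECM2 and NYX had 0 counts throughout, and TSKU was at 48.0 CPM with Pt-ttpy, 51.2 CPM with cisplatin and 40.9 CPM with DMSO. Its call with cisplatin (log2 0.32, adjusted p = 0.0479) held in 1 of 9 fits with 1 library left out, that without DMSO 2.

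Other fibroblast markers also separated into genes that were higher and genes that were not. Of 8 tested, 3 were higher and 5 not called after Pt-ttpy (median 0.38), and 5 higher and 3 not called after cisplatin (median 0.88). Of all genes, 5.59% were higher after Pt-ttpy and 10.7% after cisplatin. With 1 library left out, 2 to 4 were higher after Pt-ttpy and 5 to 6 after cisplatin. PDGFRB, described above, is among the genes called higher with each drug and is also counted with the PDGF genes. COL3A1 rose by 0.77 with Pt-ttpy (adjusted p = 0.0101) and by 0.93 with cisplatin (adjusted p = 0.00187). ACTA2, encoding the actin of contractile cells, rose by 1.69 with Pt-ttpy (adjusted p = 0.00209) and by 3.64 with cisplatin (adjusted p = 4.63e-06). Relative to cisplatin, Pt-ttpy gave lower ACTA2 (log2 -1.96, adjusted p = 0.000637) and TAGLN, another gene of contractile cells (log2 -1.70, adjusted p = 0.00973). COL1A1 was not called in either (-0.16, adjusted p = 0.695, and -0.12, adjusted p = 0.75), and VIM was not called in either. Of 5 tested epithelial markers, 3 were called higher with cisplatin (all genes, 10.7%). KRT8 and EPCAM passed the filter on low counts only through the treated libraries, so their calls support nothing. KRT8 was at 8, 30 and 13 counts with Pt-ttpy, 51, 75 and 34 with cisplatin and 6, 0 and 0 with DMSO, and EPCAM at 6, 5 and 12 counts with Pt-ttpy, 35, 48 and 6 with cisplatin and 4, 5 and 0 with DMSO. CLDN4 had 69, 117 and 90 counts with Pt-ttpy, 298, 278 and 159 with cisplatin and 61, 89 and 79 with DMSO. Between the drugs 0 of the 5 were called (all genes, 0.514%). With Pt-ttpy 0 of the 5 were called in the main analysis (all genes, 12.0%). By DESeq2, with either other filter, with the replicate block and without DMSO 1, 1 was called. No call of KRT8 or EPCAM in these fits is read as support. The endothelial marker ESAM fell by 1.18 with cisplatin (adjusted p = 0.0172), a call lost without DMSO 3 (adjusted p = 0.0523). These counts are small beside those of LUM, and their part in the rise of the 3 members was not tested.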

How the data were processed

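The authors deposited raw counts in 1 table with a column for each library. Libraries were made from total RNA with an mRNA kit, per the labels' protocols, and per the submitters' processing notes the build was GRCh38. How reads were aligned and counted, and whether by strand, is not given in the sources used here. Reads of genes on the opposite strand that overlap SPARC and THY1 exons therefore cannot be told apart from theirs. Nor is it known how reads in the PDGFRA exon bases shared with ENSG00000282278 were assigned. Symbols came from a table of Ensembl identifiers (19883 of 19974 matched), and positions, lengths and transcript GC from GENCODE 29. The 4568 unnamed loci were kept.

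The fits used edgeR 4.0.16 in R 4.3.3: filterByExpr (minimum count 10), TMM factors and a robust quasi-likelihood fit with 1 mean per group over all 9 libraries, adjusted by Benjamini-Hochberg over 15558 genes in each of 3 contrasts. The prior count behind log2 changes was 0.125, and SE is the log2 change divided by the root of F. The script was tested on simulated counts. Alternatives were other scalings, filters, DESeq2 1.42.0, a replicate block and left-out libraries. The replicates of a group differed by more than sampling noise, and none was a duplicate. The members and the gene lists were chosen with earlier results of these data known. Named genes are all members, list genes of lowest adjusted p, and the nearest profiles of called members. Some results are not reported here. PLOD1, CCN1, S100A4 and some other called list genes are counted but not described. COL1A1, COL1A2, VIM, ITGAV and ITGB1 were added for their levels.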

Additional observations from a re-analysis of the deposited data

How the results depend on the processing

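Counts of called members were 3 after Pt-ttpy in the main analysis, 2 to 3 with 1 library left out and 4 with 7 libraries (without DMSO 2 and cisplatin 2). After cisplatin they were 3, with 1 to 3 when 1 library was left out, and 1 with the 6 libraries of the contrast. Between the drugs they were 0, with 0 to 0 when 1 library was left out, and 2 with 7 libraries. Under the alternatives, 422 fold changes of single members kept their call or stayed uncalled, 7 lost a call, 3 gained one, and 0 called ones changed sign. Over all genes 1874 were called after Pt-ttpy. These were 185 to 3004 with 1 library left out (267, 185 and 299 without Pt-ttpy 1, 2 and 3, 1150 without DMSO 3, 3004 without cisplatin 2) and 5189 with 7 libraries. After cisplatin 3190 were called, 2012 to 3100 with 1 library left out (2012 without cisplatin 2, 2031 without DMSO 3) and 1313 with the 6 libraries. Between the drugs 80 were called, 18 to 155 with 1 library left out (18, 21 and 18 without Pt-ttpy 1, 2 and 3, 36 without cisplatin 1, 155 without DMSO 2), 813 with 7 libraries, 140 with the replicate block and 251 with DESeq2. The causes of these shifts were not tested, although fits with fewer libraries also have fewer samples. The share of rises depended on scaling: after Pt-ttpy 870 genes were higher and 1004 lower with TMM, 1050 and 666 with upper-quartile factors, and 1005 and 773 with library totals. After cisplatin these were 1669 and 1521 with TMM, 1940 and 913 with upper-quartile factors, and 1995 and 943 with library totals, which moved the median of all genes to 0.102. The calls of LUM, DCN and PDGFRA against DMSO held under each scaling, both filters, the replicate block and DESeq2. The deviations of same-numbered libraries from their group means had correlations of -0.04 to 0.17, highest for DMSO 2 and cisplatin 2, which share the GC trend. Not every pair was above 0.1 and the labels name no shared batch, so the numbers were not taken as a pairing. With the replicate block 2539 genes were called after Pt-ttpy and 3712 after cisplatin. Depth limits FN1, BGN and FAP.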
